A study of Mus musculus with 9 samples.

Results

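The 35 genes described here encode the transcription factor ATF4 and genes known as its targets, among them enzymes of serine synthesis and mitochondrial one-carbon metabolism and 12 cytosolic tRNA synthetases. They were chosen by gene name and not by a cut on measured values, but with earlier results of these data known. All 35 were found among the 48230 genes of the table. The RNA came from BeCon, a mouse ovarian cancer model grown as ascites, and was sequenced in 9 libraries after poly(A) selection with a kit that marks strand. Of these, 4 are from B6 mice that bore BeCon tumors and received YKL-05-099, an inhibitor of the salt-inducible kinases, 1 is from BeCon cells kept in culture, and 4 are from tumor-bearing B6 mice that received vehicle. The mouse libraries were made from ascites cells sorted as viable, CD45-negative and MHC class I-positive, so culture, the host and the sort cannot be told apart in the comparison with the cultured library. The labels give neither the age of the mice, nor the dose or time of treatment, nor the origin of BeCon, nor how many mice went into each library. P-values therefore measure the spread between these libraries. Library names share a prefix within each mouse group, so any cage or batch that the prefix marks cannot be told apart from treatment.

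ATF4 is the effector of the integrated stress response. Kinases that sense amino acid shortage, unfolded protein, viral RNA or lack of heme phosphorylate the initiation factor eIF2alpha, which lowers general translation but favours translation of Atf4 mRNA through short upstream reading frames. ATF4 protein pairs with C/EBP factors and binds C/EBP-ATF response elements in genes of amino acid synthesis, amino acid transport and tRNA charging, and growth signalling through mTORC1 also raises it. Because much of this control is translational, the level of Atf4 mRNA is not a measure of ATF4 protein. In tumor cells the pathway is known for supplying serine, glycine and folate-bound carbon units for nucleotide synthesis.

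The response element was looked for in the promoters, since it is the sequence that defines the family of targets. RefSeq promoters on GRCm38.p6, each reaching from 250 bases before to 50 bases after an annotated transcription start, were found for 28 of the 35 genes. Cth, Aldh1l2, Eif4ebp1, Nars, Wars, Lars and Cars had no entry. The motif TGATGNAA, searched on both strands, was present in 12 of these 28 genes (42.9%), against 1219 of 27025 genes with a promoter (4.51%). These 12 were Trib3, Jdp2, Nupr1, Asns, Chac1, Pck2, Vldlr, Aars, Gars, Yars, Iars and Tars. A match is a description of the letters in this window and does not show a bound site. The full cAMP response element TGACGTCA, also searched on both strands, was in none of the 28 genes and in 549 of the 27025 genes (2.03%).

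The 6 promoters with a match whose genes had the smallest p in the treatment comparison are printed 5′ to 3′ on the strand of the gene, with the bases of the match in capitals. They lie at chr14:55540016-55540315, plus strand (Pck2), chr19:27216770-27217069, plus strand (Vldlr), chr6:7693160-7693459, minus strand (Asns), chr2:152344011-152344310, minus strand (Trib3), chr2:119350992-119351291, plus strand (Chac1) and chr6:55037751-55038050, plus strand (Gars).
Pck2: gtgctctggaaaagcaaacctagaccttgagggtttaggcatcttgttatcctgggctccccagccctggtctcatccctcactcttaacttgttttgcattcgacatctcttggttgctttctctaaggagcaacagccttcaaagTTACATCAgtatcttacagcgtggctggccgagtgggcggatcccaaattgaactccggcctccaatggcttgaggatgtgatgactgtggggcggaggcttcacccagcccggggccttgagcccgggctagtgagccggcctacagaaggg
Vldlr: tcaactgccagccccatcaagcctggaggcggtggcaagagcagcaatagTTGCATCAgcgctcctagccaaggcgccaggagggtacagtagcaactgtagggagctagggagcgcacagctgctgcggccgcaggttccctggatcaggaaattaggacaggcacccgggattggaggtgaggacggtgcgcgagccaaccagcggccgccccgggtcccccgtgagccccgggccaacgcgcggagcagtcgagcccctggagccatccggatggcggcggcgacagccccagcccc
Asns: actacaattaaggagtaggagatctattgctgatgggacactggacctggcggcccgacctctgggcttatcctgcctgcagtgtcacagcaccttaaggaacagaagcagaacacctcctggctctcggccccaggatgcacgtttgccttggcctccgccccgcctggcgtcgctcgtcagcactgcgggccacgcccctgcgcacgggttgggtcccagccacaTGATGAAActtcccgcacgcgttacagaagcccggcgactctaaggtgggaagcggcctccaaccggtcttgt
Trib3: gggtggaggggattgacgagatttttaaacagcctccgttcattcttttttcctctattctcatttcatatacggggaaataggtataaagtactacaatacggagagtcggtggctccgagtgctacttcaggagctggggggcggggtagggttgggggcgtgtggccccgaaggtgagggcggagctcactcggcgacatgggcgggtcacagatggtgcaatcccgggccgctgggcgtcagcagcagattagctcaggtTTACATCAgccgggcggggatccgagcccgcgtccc
Chac1: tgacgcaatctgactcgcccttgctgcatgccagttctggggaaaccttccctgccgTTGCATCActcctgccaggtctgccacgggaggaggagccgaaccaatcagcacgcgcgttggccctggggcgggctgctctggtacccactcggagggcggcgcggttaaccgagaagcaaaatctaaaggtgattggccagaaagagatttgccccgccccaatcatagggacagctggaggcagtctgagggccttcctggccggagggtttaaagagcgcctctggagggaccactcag
Gars: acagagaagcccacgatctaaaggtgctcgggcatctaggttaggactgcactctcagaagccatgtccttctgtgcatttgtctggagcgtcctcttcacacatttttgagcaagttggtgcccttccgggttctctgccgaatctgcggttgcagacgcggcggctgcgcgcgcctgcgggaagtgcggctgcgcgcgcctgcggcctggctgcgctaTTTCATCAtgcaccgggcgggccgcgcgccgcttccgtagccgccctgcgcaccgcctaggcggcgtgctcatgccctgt
In Asns the match reads in the written orientation and begins 23 bases before the start. In the other 5 it reads as the reverse complement, beginning 103 bases before the start in Pck2, 200 in Vldlr, 193 in Chac1 and 30 in Gars, and at base 15 of the transcript in Trib3.

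**Figure D1:**
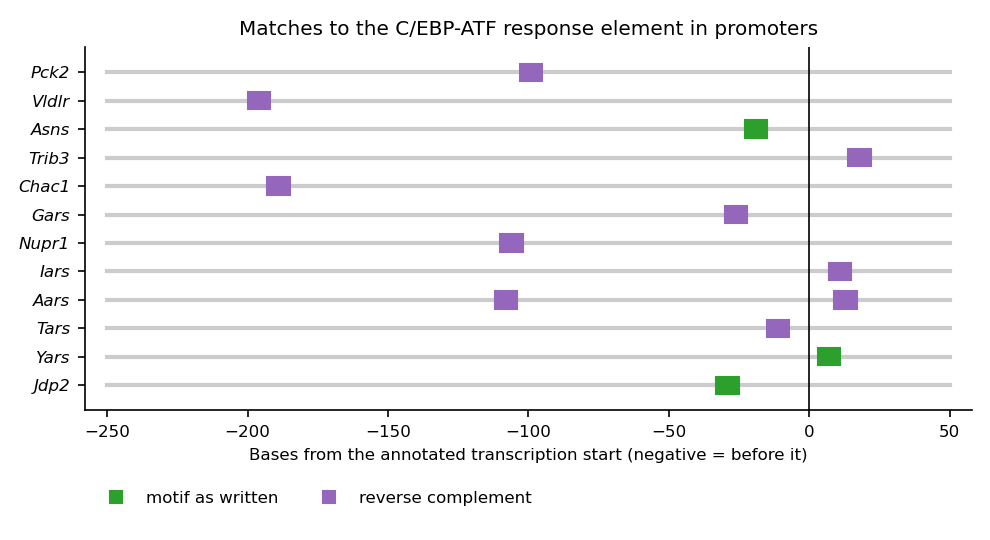
Position of each match to the C/EBP-ATF response element, as coloured boxes 8 bases long, in the 12 promoters that held one, with distance from the annotated transcription start in bases on the horizontal axis. Aars has 2 matches and the other genes 1 each; 9 of the 12 genes have only the reverse complement, and the matches spread from 200 bases before the start (Vldlr) to base 15 of the transcript (Trib3).

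All values below are deposited FPKM (fragments scaled to transcript length and library size). FPKM sums ran from 453169 to 482851 per library, and 11421 to 11893 genes per library reached an FPKM of 1. From the lowest values the approximate depth was 22000000 to 35000000 fragments per library. Pearson's r between libraries was taken on the log2(FPKM + 1) scale over the 11788 genes of the treatment fit, with genes not being replicates. It was 0.988 to 0.992 within the YKL-05-099 group and 0.985 to 0.993 within the vehicle group. Between these 2 groups it was 0.96 to 0.979, and between the cultured library and the mouse libraries 0.856 to 0.874. Of 12 epithelial and ovarian tumor markers 9 averaged at least 1 FPKM in YKL-05-099 libraries, 7 in the cultured library and 9 in vehicle libraries. Wt1, Krt8, Krt18, Krt19 and Msln were present in all 3 groups, while Epcam, Cdh1 and Pax8 stayed below 1 FPKM in each. Krt7 and Muc16 were apart as lower in culture, Krt7 at 21.6 ± 3.68 FPKM in YKL-05-099, 0.0804 FPKM in cultured and 31.5 ± 8.12 FPKM in vehicle cells, and Muc16 at 9.82 ± 1.21 FPKM in YKL-05-099, 0.112 FPKM in cultured and 6.86 ± 0.907 FPKM in vehicle cells.

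Leukocyte markers differed between the mouse groups and are given here because they move with the treatment. The summed FPKM of 15 pan-leukocyte markers was 19.1 to 26.8 in YKL-05-099 libraries, 14.6 in the cultured library and 34.9 to 67.7 in vehicle libraries. For 15 macrophage markers the sums were 33.3 to 113 after YKL-05-099, 13.3 in culture and 251 to 574 after vehicle. For 7 erythroid markers they were 1.45 to 92.8 after YKL-05-099, 0.188 in culture and 244 to 1490 after vehicle. The sums for 8 B and plasma cell markers were 0.896 to 1.55 in YKL-05-099, 0.738 in cultured and 16.5 to 62.5 in vehicle cells, and those for 8 fibroblast markers were 555 to 634 in YKL-05-099, 338 in cultured and 656 to 708 in vehicle cells. Most of the fibroblast sum was Dcn, at 503 ± 30.7 FPKM in YKL-05-099, 243 FPKM in cultured and 523 ± 19.4 FPKM in vehicle cells. Of 6 fibroblast markers tested, 5 were called lower after YKL-05-099, where 15.1% of all genes were, and Dcn was not called. The part of these cell types in the treatment results was not tested beyond the covariate fit given below. In the cultured library 7 pan-leukocyte markers, Ptprc among them, and 8 macrophage markers, Adgre1 and C1qa among them, were listed at 0. Another 4 pan-leukocyte and 3 macrophage markers reached 1 FPKM there. Ptpn6 was at 4.23 FPKM in culture, against 3.29 ± 0.597 FPKM in vehicle cells. Cytip (5.67 FPKM) and Cd68 (10.04 FPKM) in culture lay below their vehicle means of 10.6 and 18.4 FPKM. Ptpn6 and Cytip belong to the pan-leukocyte list used as covariate below, so that list does not measure leukocytes alone. In such bulk samples fewer cells of a type and less RNA per cell cannot be told apart.

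Summed over the 35 genes, the level was close in both mouse groups and far higher in culture. The sums were 1203, 1137, 1195 and 1157 FPKM in YKL-05-099 libraries, 3360 FPKM in the cultured library and 1039, 1074, 1099 and 1070 FPKM in vehicle libraries. For the 12 tRNA synthetases alone the sums were 335.9, 325.8, 337.3 and 342.3 FPKM after YKL-05-099, 1052 FPKM in culture and 333.8, 349.1, 356.5 and 338.9 FPKM after vehicle. The mouse groups overlapped in the synthetase sum and did not overlap in the sum of all 35 genes, to which Atf4 contributes most.

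**Figure D2:**
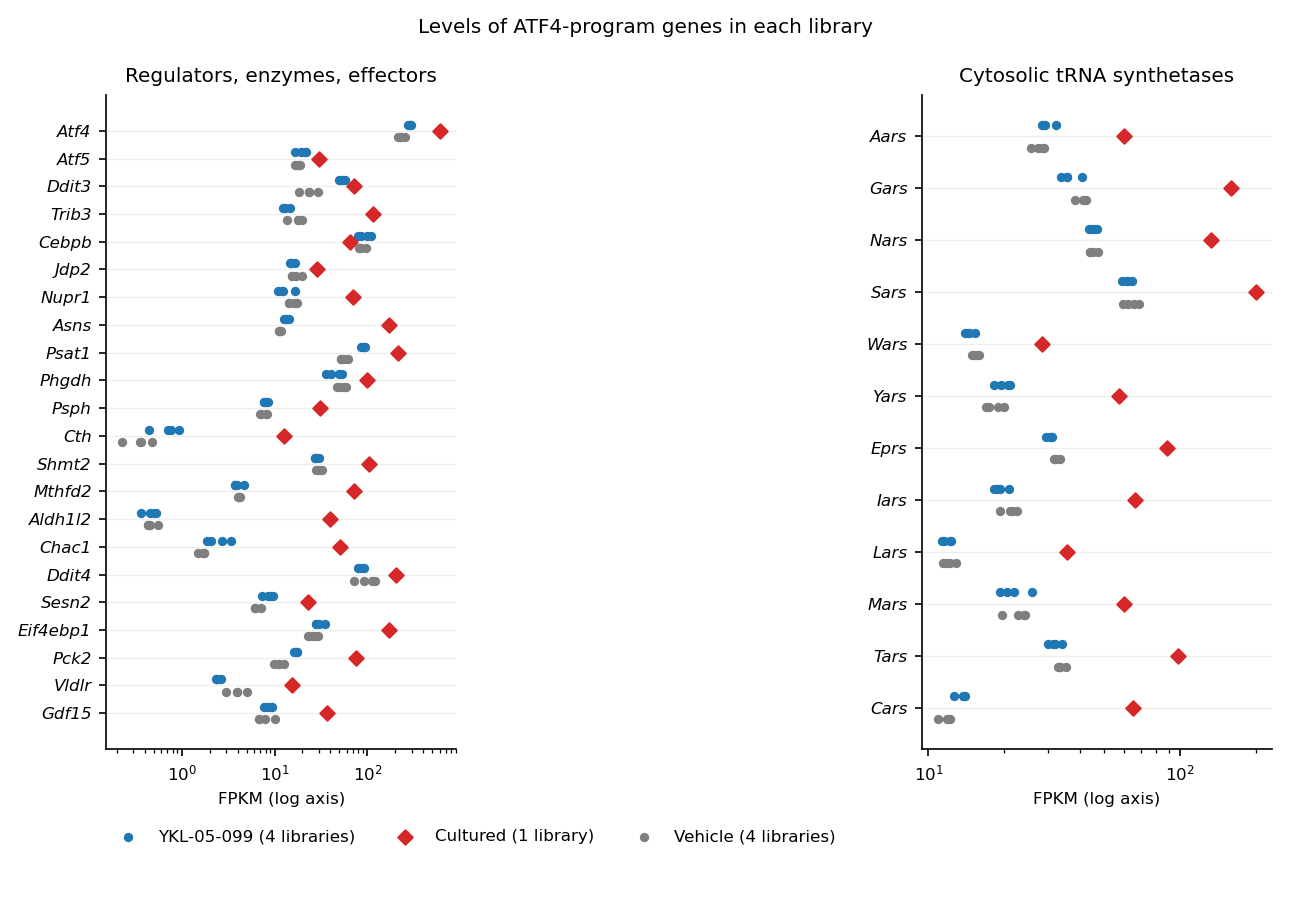
FPKM of each gene on a log axis, with 4 YKL-05-099 libraries as blue points, the cultured library as a red diamond and 4 vehicle libraries as grey points; Stc2, at or near 0 throughout, is left out. The red diamond lies right of all 8 mouse libraries for every gene drawn except Cebpb, and the blue and grey points overlap for most genes.

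The treatment comparison asked what YKL-05-099 changed in these genes in the tumor-bearing mouse. Of the 35 genes 32 passed the filter of at least 1 FPKM in at least 4 of the 8 mouse libraries. Limma on log2(FPKM + 1) called 8 of them higher and 2 lower at a Benjamini-Hochberg adjusted p under 0.05. That is 31.2% of the tested genes, where 43.2% of all 11788 genes tested were called (28.0% higher and 15.1% lower), so the share lies below the background. The median log2 fold change of the 32 genes was -0.01, beside 0.05 for all genes tested. Of the 32 genes, 8 lay higher in every treated than in every vehicle library and 2 lower (31.2% without overlap). Of all genes 40.0% had no overlap (26.5% higher and 13.5% lower). After median-of-ratios scaling 6 of the 32 were called higher and 7 lower, and over all genes the split was 2502 higher to 2468 lower in place of 3304 to 1785. When the pan-leukocyte marker level entered the fit as a covariate, 1 of the 32, Psat1, was called, and 608 of all genes. That covariate does not overlap between the groups, and the median standard error was 0.132 with it and 0.0671 without it.

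Among the regulators Ddit3 rose most, Atf4 rose by a smaller amount and Trib3 fell. Ddit3 (chromosome 10, 127290774 to 127296288), which encodes the C/EBP-family factor CHOP, had 48.9, 52.9, 57.5 and 51.4 FPKM in YKL-05-099 libraries and 23.5, 18.2, 23.3 and 29.3 FPKM in vehicle libraries. Every treated library lay above every vehicle library, and the log2 fold change was 1.14, SE 0.117, limma adjusted p = 8.06e-05. With the pan-leukocyte covariate it was 0.84 (adjusted p = 0.053). Ddit3 shares 68 bases with Mars on the opposite strand, and whether reads were assigned by strand is not given in the sources used here.

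Atf4 (chromosome 15, 80255184 to 80257540) had the highest level of the 35 genes in every library. It was at 293, 288, 288 and 270.5 FPKM after YKL-05-099 and 222, 213, 228 and 253 FPKM after vehicle. The groups did not overlap (0.32, SE 0.0574, limma adjusted p = 0.0019 for the log2 fold change). Trib3, a pseudokinase that binds AKT and restrains ATF4 and CHOP, stood at 14.7, 12.3, 13.0 and 12.5 FPKM in YKL-05-099 and 18.1, 18.02, 19.8 and 13.6 FPKM in vehicle cells. Vehicle replicate 4 lay inside the treated range, and the log2 fold change was -0.37, SE 0.103, limma adjusted p = 0.0158; without a filter on low values the adjusted p was 0.0532.

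The other 4 regulators did not pass the test. Atf5, a bZIP factor related to ATF4, averaged 19.8 ± 2.34 FPKM in YKL-05-099 and 17.9 ± 0.978 FPKM in vehicle cells (SD, n = 4 each), and it passed as higher without YKL-05-099 replicate 2 (0.20, adjusted p = 0.0376 by limma). Cebpb, a dimer partner of ATF4, averaged 92.9 ± 13.3 FPKM after treatment and 86.5 ± 6.54 FPKM after vehicle. For Jdp2, a bZIP repressor of AP-1 sites, the means were 15.3 ± 0.875 FPKM in treated and 16.8 ± 1.97 FPKM in vehicle cells. Nupr1, a small stress-induced nuclear protein, averaged 13.0 ± 2.57 FPKM after treatment and 15.6 ± 1.52 FPKM after vehicle (limma adjusted p = 0.104); it passed as lower without YKL-05-099 replicate 3 (-0.37, adjusted p = 0.0073).

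The enzymes of serine synthesis did not move together. Psat1 (chromosome 19, 15904678 to 15947337), which transfers the amino group in the middle step, had 91.6, 85.6, 91.4 and 94.3 FPKM in YKL-05-099 libraries and 56.3, 52.5, 52.0 and 61.3 FPKM in vehicle libraries. All 4 treated libraries were higher than all 4 vehicle libraries, and the log2 fold change was 0.70, SE 0.0579, limma adjusted p = 2.76e-05. It was the only called gene of the 32 that kept its call with the pan-leukocyte covariate (0.56, adjusted p = 0.0211). Phgdh, which commits the glycolytic intermediate to serine, was at 53.0, 49.8, 40.7 and 35.9 FPKM in treated and 55.7, 59.2, 51.2 and 47.5 FPKM in vehicle libraries, and these ranges overlapped (-0.26, SE 0.117, limma adjusted p = 0.1). Without YKL-05-099 replicate 1 it passed the threshold as lower (adjusted p = 0.0382). Psph, the phosphatase of the last step, averaged 8.01 ± 0.430 FPKM in YKL-05-099 and 7.61 ± 0.623 FPKM in vehicle cells and did not pass (limma adjusted p = 0.438).

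Asns, the asparagine synthetase gene and a standard readout of ATF4 activity, rose slightly. Its values were 13.8, 12.6, 14.5 and 12.8 FPKM after YKL-05-099 and 11.1, 11.8, 11.3 and 11.1 FPKM after vehicle, without overlap (0.22, SE 0.0555, limma adjusted p = 0.00945). The call ended with quantile normalization (log2 fold change 0.15, adjusted p = 0.065). Cth, which makes cysteine from cystathionine, did not pass the filter on low values, with 0.936, 0.760, 0.448 and 0.717 FPKM in treated and 0.483, 0.358, 0.229 and 0.366 FPKM in vehicle libraries. The groups overlapped, and in a fit with no filter it was called higher (log2 fold change 0.33, limma adjusted p = 0.0489).

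In the mitochondrial branch of one-carbon metabolism neither of the 2 tested genes was called, where 43.2% of all genes were. Shmt2, which splits serine into glycine and a folate-bound carbon, averaged 28.3 ± 1.26 FPKM in YKL-05-099 and 30.1 ± 1.85 FPKM in vehicle cells, and it was called lower after median-of-ratios scaling (-0.14, limma adjusted p = 0.0497). Mthfd2, which oxidises that carbon unit, stood at 4.05 ± 0.480 FPKM in treated and 4.16 ± 0.0793 FPKM in vehicle cells (limma adjusted p = 0.727). Aldh1l2, a mitochondrial formyl-folate dehydrogenase, was below the filter in both groups, with 0.370 to 0.524 FPKM in treated and 0.438 to 0.557 FPKM in vehicle libraries.

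Of the 6 stress effectors Pck2, Sesn2 and Chac1 were called higher and Vldlr lower, where 28.0% of all genes were called higher and 15.1% lower. Pck2 (chromosome 14, 55540266 to 55550017), the mitochondrial form of phosphoenolpyruvate carboxykinase, had 17.6, 16.6, 16.4 and 17.4 FPKM after YKL-05-099 and 9.89, 10.8, 12.5 and 11.3 FPKM after vehicle. The groups did not overlap, and the log2 fold change was 0.57, SE 0.0672, limma adjusted p = 0.000179. Vldlr (chromosome 19, 27216484 to 27254231), a lipoprotein receptor, had 2.69, 2.39, 2.43 and 2.32 FPKM in treated and 5.07, 4.00, 3.90 and 3.03 FPKM in vehicle libraries, with every treated library below every vehicle library (-0.52, SE 0.114, limma adjusted p = 0.00522). Sesn2, a leucine sensor that restrains mTORC1, was at 8.49, 8.90, 7.41 and 9.60 FPKM in YKL-05-099 and 7.16, 6.23, 6.21 and 6.22 FPKM in vehicle libraries (0.36, SE 0.0796, limma adjusted p = 0.00522).

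Chac1, an enzyme that degrades glutathione, was low in all mouse libraries, with 2.71, 2.08, 3.38 and 1.86 FPKM after YKL-05-099 and 1.68, 1.75, 1.50 and 1.73 FPKM after vehicle. The groups did not overlap (0.38, SE 0.129, limma adjusted p = 0.0384). The call ended when any of 5 libraries was left out: YKL-05-099 replicates 1 and 3 (log2 fold changes 0.34 and 0.26) and vehicle replicates 1, 2 and 3 (0.38, 0.39 and 0.35). It also ended with median-of-ratios scaling (0.34), quantile normalization (0.33) and no filter on low values (adjusted p = 0.109). Ddit4, an inhibitor of mTORC1, had 82.5, 79.7, 89.0 and 92.2 FPKM in treated and 92.8, 112, 122 and 70.9 FPKM in vehicle libraries. Vehicle replicate 4 held the lowest of these 8 values; without it Ddit4 passed as lower (log2 fold change -0.33, limma adjusted p = 0.0136). Eif4ebp1, which encodes a repressor of cap-dependent translation, averaged 30.2 ± 3.06 FPKM in YKL-05-099 and 26.1 ± 2.54 FPKM in vehicle cells (limma adjusted p = 0.0748), and it passed as higher without vehicle replicate 2 (0.25, adjusted p = 0.0414).

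The secreted stress cytokine gene Gdf15 averaged 8.70 ± 0.773 FPKM in YKL-05-099 and 7.88 ± 1.53 FPKM in vehicle cells, and it did not pass the test unless vehicle replicate 4 was left out (log2 fold change 0.25, limma adjusted p = 0.0328). Stc2, a secreted glycoprotein gene, was at or below 0.0368 FPKM in every library and listed at 0 in culture.

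Of the 12 cytosolic tRNA synthetase genes, whose products charge tRNAs with their amino acids, 11 were not called and Cars was higher. Of all genes tested 28.0% were called higher and 15.1% lower. The log2 fold changes ran from -0.17 (Gars) to 0.19 (Cars), with a median of -0.05. Cars, for cysteine, had 13.8, 12.6, 13.8 and 13.9 FPKM after YKL-05-099 and 11.8, 10.9, 12.1 and 12.1 FPKM after vehicle, without overlap (0.19, SE 0.0541, limma adjusted p = 0.0178). That call ended with median-of-ratios scaling (adjusted p = 0.0581) and quantile normalization (adjusted p = 0.104). Gars, for glycine, stood at 33.8, 35.5, 35.6 and 40.6 FPKM in treated and 41.0, 42.1, 42.2 and 38.1 FPKM in vehicle libraries, with overlapping groups and an adjusted p just above the threshold (0.0506 by limma). It passed as lower without YKL-05-099 replicate 4 (-0.22, adjusted p = 0.00945) or vehicle replicate 4 (-0.20, adjusted p = 0.0243), and Iars did without vehicle replicate 4 (-0.17, adjusted p = 0.0359). Eprs, for glutamate and proline, was at 31.1, 29.3, 30.3 and 30.6 FPKM in treated and 31.9, 32.2, 33.3 and 31.6 FPKM in vehicle libraries. Its groups did not overlap, yet it was not called (-0.09, SE 0.0394, limma adjusted p = 0.0985). After median-of-ratios scaling 0 of the 12 were called higher and Tars, Eprs, Gars and Iars lower. Of all 11788 genes 2502 were then called higher and 2468 lower. With quantile normalization Wars, Eprs, Gars and Iars were called lower, where 2411 of all 11788 genes were. The median of the 12 was -0.11 with median-of-ratios scaling and -0.10 with quantile normalization.

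**Figure D3:**
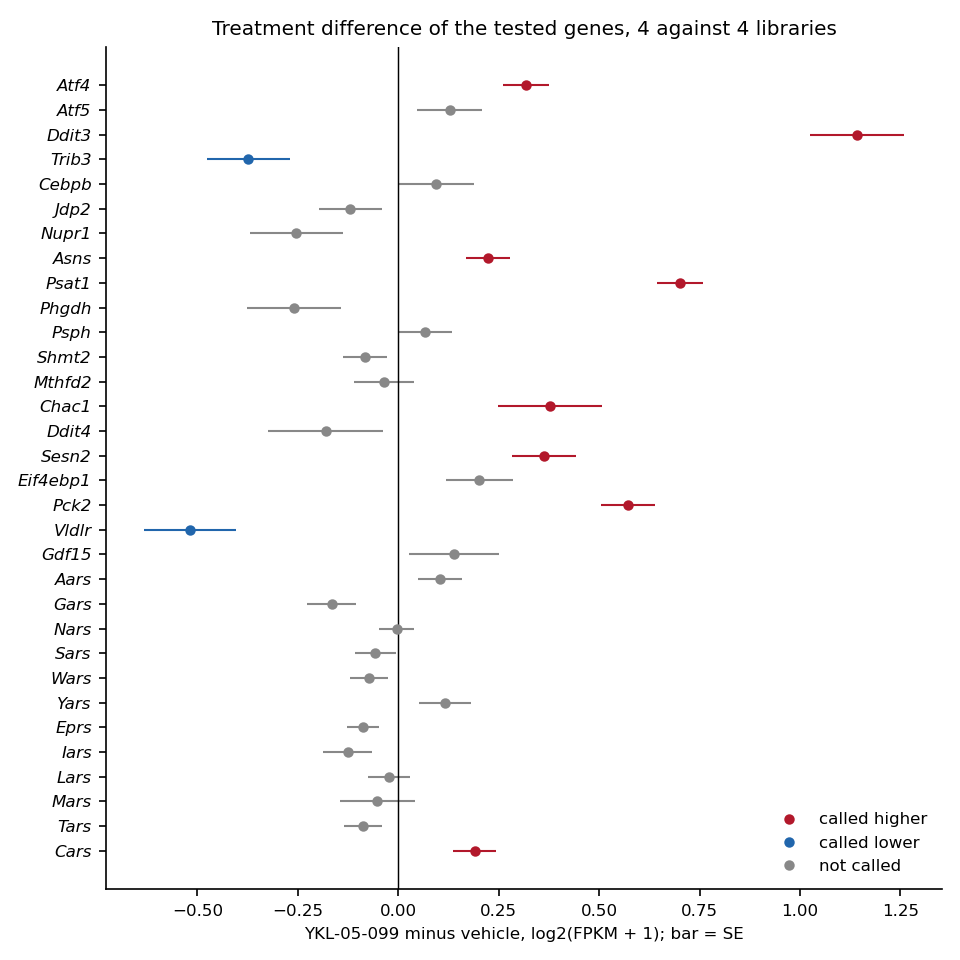
Difference of YKL-05-099 minus vehicle on the log2(FPKM + 1) scale for the 32 tested genes, with bars of 1 SE from limma; red marks genes called higher, blue genes called lower, and grey genes not called. Ddit3 at 1.14 stands furthest to the right, and the synthetases lie between -0.17 and 0.19.

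The remaining 9 synthetases did not pass the test on the deposited scale. Nars, for asparagine, averaged 44.9 ± 1.65 FPKM in YKL-05-099 and 45.1 ± 1.56 FPKM in vehicle cells, and Sars, for serine, 61.5 ± 2.14 FPKM in YKL-05-099 and 64.1 ± 3.99 FPKM in vehicle cells. Aars averaged 29.6 ± 1.67 FPKM after treatment and 27.4 ± 1.43 FPKM after vehicle, and Tars 31.6 ± 1.65 FPKM after treatment and 33.6 ± 1.01 FPKM after vehicle. Yars, Mars, Iars, Wars and Lars had lower levels, with mouse means from 11.8 ± 0.468 FPKM for Lars to 21.9 ± 2.88 FPKM for Mars in treated cells and from 12.1 ± 0.586 FPKM for Lars to 22.6 ± 2.09 FPKM for Mars in vehicle cells. Over the 32 tested genes the coefficient of variation between libraries had a median of 6.43% in the YKL-05-099 group and 7.36% in the vehicle group. The largest values were 27.4% for Chac1 after treatment and 22.6% for Ddit4 after vehicle.

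The comparison of the cultured library with the ascites cells gave larger differences for most of these genes. With 1 cultured library there is no test and no replicate check. A gene was counted as apart when its cultured FPKM was above or below those of all 8 mouse libraries and its log2(FPKM + 1) was at least 2 units from the vehicle mean. By this rule 11 of the 34 genes that entered were higher in culture and 0 lower, while 2.08% of 12296 genes were higher and 3.06% lower. At a distance of at least 1 log2 unit 29 of the 34 genes were higher, against 9.62% of all genes, and 0 were lower, against 10.6%. Regardless of size, 33 of the 34 genes lay above all 8 mouse libraries, where 37.4% of all genes did, and 1, Cebpb, lay below all 8, where 36.2% of all genes did. The median difference was 1.65 log2 units for the 34 genes and 0.03 for all genes, and after median-of-ratios scaling it was 1.61 for the 34 genes. For 26 genes the cultured value was at least 2 times that of the highest mouse library, and for 5 genes it was at least 10 times. The share of all genes at these ratios was not computed, so these counts have no background beside them. Of the 5, Cth and Aldh1l2 reached at most 0.937 and 0.557 FPKM in any mouse library, so their ratios rest on low values.

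**Figure D4:**
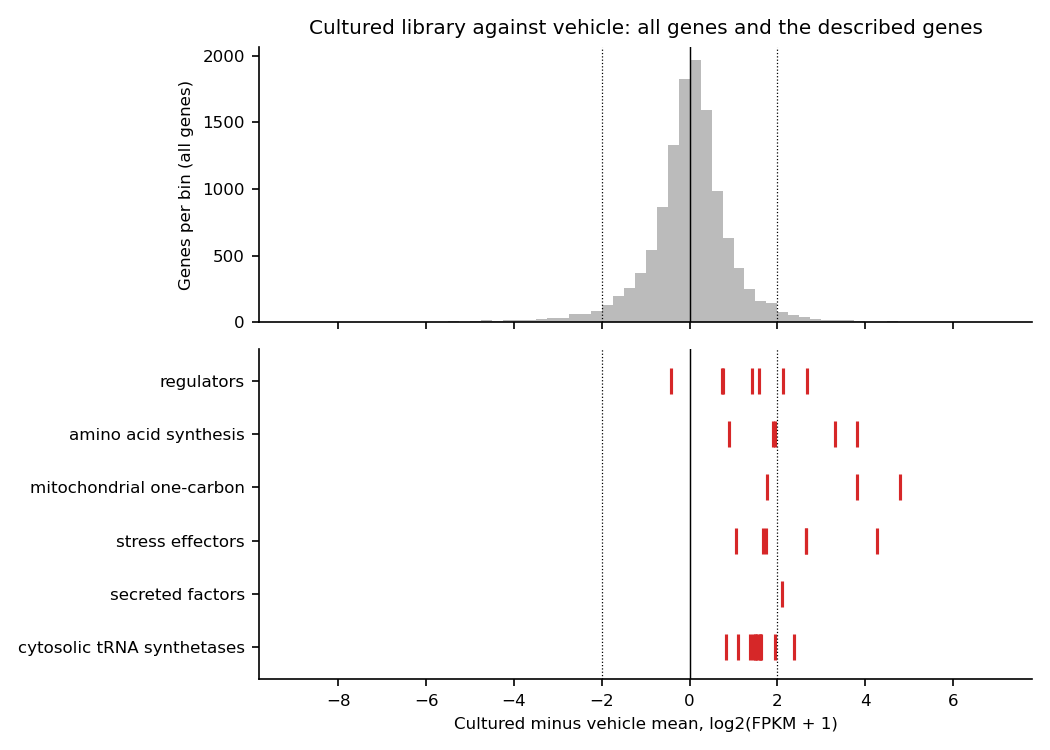
Difference of the cultured library minus the vehicle mean on the log2(FPKM + 1) scale, as a histogram over all 12296 genes in bins of 0.25 (top) and as red ticks for the described genes by role (bottom), with dotted lines at 2 units on either side. The histogram is centred near 0, whereas 33 of the 34 ticks lie right of 0.

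Among the roles the mitochondrial one-carbon genes had the largest median difference, 3.81 log2 units over 3 genes. These include Aldh1l2, which entered only through the cultured library. Aldh1l2 was at 39.6 FPKM in culture and at 0.557, 0.439, 0.453 and 0.438 FPKM in vehicle libraries, 84.0 times the vehicle mean. Mthfd2 stood at 71.6 FPKM in culture and 4.26, 4.07, 4.18 and 4.14 FPKM in vehicle libraries, a ratio of 17.2 to the vehicle mean. Both genes were low in ascites cells of either group. Shmt2 had 104 FPKM in culture and 30.9, 29.3, 32.2 and 27.9 FPKM in vehicle libraries, and it did not reach the distance of 2 log2 units (1.75).

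For amino acid synthesis Asns and Cth were apart, and Psat1, Psph and Phgdh differed by less than 2 log2 units. Asns stood at 172 FPKM in culture, against 11.3 ± 0.346 FPKM in vehicle cells (SD, n = 4), a ratio of 15.1. Its highest mouse library, a treated one, held 14.5 FPKM. Cth was at 12.5 FPKM in culture and 0.483, 0.358, 0.229 and 0.366 FPKM in vehicle libraries, a ratio of 34.8 to the vehicle mean. Psat1 had 214 FPKM in culture against 55.5 ± 4.29 FPKM in vehicle cells (log2 difference 1.93). Psph had 31.1 FPKM in culture against 7.61 ± 0.623 FPKM in vehicle cells (1.90), and Phgdh 99.3 FPKM in culture against 53.4 ± 5.12 FPKM in vehicle cells (0.89).

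Among the effectors Chac1, Eif4ebp1 and Pck2 were apart. Chac1 was at 50.2 FPKM in culture and 1.66 ± 0.113 FPKM in vehicle cells, 30.2 times as high, and 14.9 times the highest mouse library. Eif4ebp1 had 169 FPKM in culture and 26.1 ± 2.54 FPKM in vehicle cells. Pck2 had 75.4 FPKM in culture and 11.1 ± 1.10 FPKM in vehicle cells. Sesn2 stood at 22.7 FPKM in culture and 6.46 ± 0.469 FPKM in vehicle cells, Vldlr at 15.5 FPKM in culture and 4.00 ± 0.838 FPKM in vehicle cells, and Ddit4 at 203 FPKM in culture and 99.3 ± 22.5 FPKM in vehicle cells. These 3 lay above all mouse libraries and between 1 and 2 log2 units from the vehicle mean. The cytokine gene Gdf15 was apart, at 36.7 FPKM in culture and 7.88 ± 1.53 FPKM in vehicle cells.

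The regulators had the smallest median difference of the roles, 1.41 log2 units, and Cebpb was the 1 gene that lay below all mouse libraries. Trib3 and Nupr1 were apart, with Trib3 at 116 FPKM in culture against 17.4 ± 2.64 FPKM in vehicle cells, and Nupr1 at 70.6 FPKM in culture against 15.6 ± 1.52 FPKM in vehicle cells. Atf4 stood at 609 FPKM in culture and 229 ± 17.1 FPKM in vehicle cells (log2 difference 1.41), and Ddit3 at 72.0 FPKM in culture and 23.6 ± 4.54 FPKM in vehicle cells (1.59). Atf5 and Jdp2 differed by under 1 log2 unit (0.73 and 0.75). Cebpb was at 64.3 FPKM in culture, below the mouse range of 79.1 to 108 FPKM.

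All 12 synthetases were above every mouse library, where 37.4% of all genes were. Of them 11 lay at least 1 log2 unit above the vehicle mean, against 9.62% of all genes. Cars lay more than 2 units above it, against 2.08% of all genes. Cars stood at 64.8 FPKM in culture and 11.7 ± 0.573 FPKM in vehicle cells. Gars was at 159.9 FPKM in culture and 40.8 ± 1.92 FPKM in vehicle cells, and Sars, the highest of the family in culture, at 201 FPKM in culture and 64.1 ± 3.99 FPKM in vehicle cells. Wars differed least, at 28.2 FPKM in culture and 15.4 ± 0.497 FPKM in vehicle cells (log2 difference 0.83). The other 8 lay between 1.10 (Aars) and 1.604 log2 units (Iars).

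Both comparisons use the same vehicle libraries, so their values are only set side by side. Of the 10 genes called under treatment, 8 had a treated mean between the vehicle mean and the cultured value, and Trib3 and Vldlr did not. For each of these 10 the cultured value lay above all 8 mouse libraries, so this count only restates the direction of the calls. For Ddit3 the treated mean of 52.7 ± 3.61 FPKM came near the cultured 72.0 FPKM, and vehicle cells had 23.6 ± 4.54 FPKM. For Asns the treated mean of 13.4 ± 0.876 FPKM stayed close to the vehicle mean of 11.3 ± 0.346 FPKM, far from the cultured 172 FPKM. Trib3 and Vldlr were lower after treatment and higher in culture than in vehicle cells. The 12 genes with a response element match had a median difference between culture and vehicle of 1.84 log2 units (0.75 to 4.27), and the 15 genes that had a promoter without a match and entered the rule had 1.59 (-0.42 to 3.81).

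Genes outside the 35 that belong to the same pathways were read from lists written from textbook knowledge. The tRNA synthetases not among the 12, with their scaffold proteins, formed a list of 11 tested genes. In culture 0 of these 11 were apart by 2 log2 units and 1, Farsb, by 1 unit, with a median difference of 0.35 log2 units beside 1.53 for the 12 described synthetases. Arginyl-tRNA synthetase gene Rars, for example, was at 79.8 FPKM in culture, against 79.4 ± 3.29 FPKM in vehicle cells, and Dars at 86.0 FPKM in culture against 74.5 ± 1.66 FPKM in vehicle cells. Under YKL-05-099 0 of the 11 were called higher and 3 lower, where 28.0% of all genes were called higher and 15.1% lower. The 3 were Rars (63.9 ± 1.53 FPKM in treated and 79.4 ± 3.29 FPKM in vehicle cells, log2 fold change -0.31, limma adjusted p = 0.000431), Eef1e1 (-0.36, limma adjusted p = 0.000553) and Dars (-0.18, limma adjusted p = 0.00338). Limma with the leukocyte covariate called 0 of these 11, and 4 had an unadjusted p under 0.05. Among 19 mitochondrial tRNA synthetase genes tested 9 were called higher and 1 lower after treatment, with a median log2 fold change of 0.20, beside the same 28.0% and 15.1% of all genes. After median-of-ratios scaling 6 were called higher and 1 lower, beside 2502 and 2468 of all 11788 genes. With the pan-leukocyte covariate 1, Ears2, was called and the median was 0.11. Ears2 rose to 16.0 ± 1.30 FPKM in YKL-05-099 cells, against 10.5 ± 0.753 FPKM in vehicle cells (0.56, limma adjusted p = 0.00026), and Cars2 to 11.7 ± 0.841 FPKM in YKL-05-099 cells, against 8.12 ± 0.587 FPKM in vehicle cells (0.47, limma adjusted p = 0.000516). In culture the median difference of these 19 genes was 0.05 log2 units, and 0 were apart by 2 units.

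Of 11 amino acid transporter genes tested, 4 were called higher after YKL-05-099 and 0 lower, where 28.0% of all genes were called higher and 15.1% lower. Slc3a2, the heavy chain shared by several exchangers, was at 213 ± 29.7 FPKM in YKL-05-099 and 103 ± 11.4 FPKM in vehicle cells (log2 fold change 1.03, limma adjusted p = 9.6e-05). Slc38a1, a glutamine carrier, had 68.0 ± 3.80 FPKM after treatment and 41.7 ± 3.23 FPKM after vehicle (0.69, limma adjusted p = 4.47e-05), and Slc7a1, a carrier of arginine and lysine, 68.2 ± 3.73 FPKM after treatment and 42.0 ± 7.57 FPKM after vehicle (0.70, limma adjusted p = 0.000632). Slc36a1 was the remaining call (0.34, limma adjusted p = 0.00156). With the pan-leukocyte covariate Slc3a2 (1.44, limma adjusted p = 0.00207) and Slc38a1 (0.55, adjusted p = 0.0305) were called, and Slc7a1 (0.49, adjusted p = 0.181) and Slc36a1 (0.28, adjusted p = 0.203) were not. In culture Slc7a11, the cystine carrier subunit, and Slc1a4 were apart by 2 units among 12 that entered, where 2.08% of all genes were apart as higher; both are named after their values were seen. Slc7a11 entered only through the cultured library, with 14.1 FPKM in culture and between 0 and 0.136 FPKM in the mouse libraries. Slc1a4 stood at 19.1 FPKM in culture and 3.69 ± 0.0902 FPKM in vehicle cells.

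The list of other amino acid response and ATF4-bound genes split in both comparisons. Of 18 tested, 6 were called higher and 5 lower after YKL-05-099, beside 28.0% and 15.1% of all genes, and with the pan-leukocyte covariate 1, Sqstm1, was called. The smallest p belonged to Sqstm1, an autophagy receptor (0.49, limma adjusted p = 0.000457), Cdkn1a (-0.37, limma adjusted p = 0.000522), Txnip (-0.75, limma adjusted p = 0.000828) and Cebpg, a dimer partner of ATF4 (0.31, limma adjusted p = 0.00653). In culture 5 of 20 were apart as higher and 1 as lower, beside 2.08% and 3.06% of all genes. Of these 20, Fgf21 and Slc7a11 entered only through the cultured library. The 5, named after their values were seen, were the proline synthesis genes Pycr1 (43.8 FPKM in culture, 1.96 ± 0.454 FPKM in vehicle cells) and Aldh18a1 (108 FPKM in culture, 16.3 ± 0.919 FPKM in vehicle cells), the oxidoreductase gene Ero1l (240.2 FPKM in culture, 9.24 ± 1.98 FPKM in vehicle cells), Fgf21 (15.3 FPKM in culture, 0.202 ± 0.0442 FPKM in vehicle cells) and Slc7a11. Atf3, itself a stress-induced bZIP factor, went the other way, at 10.6 FPKM in culture, against 197 ± 21.7 FPKM in vehicle cells.

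**Figure D5:**
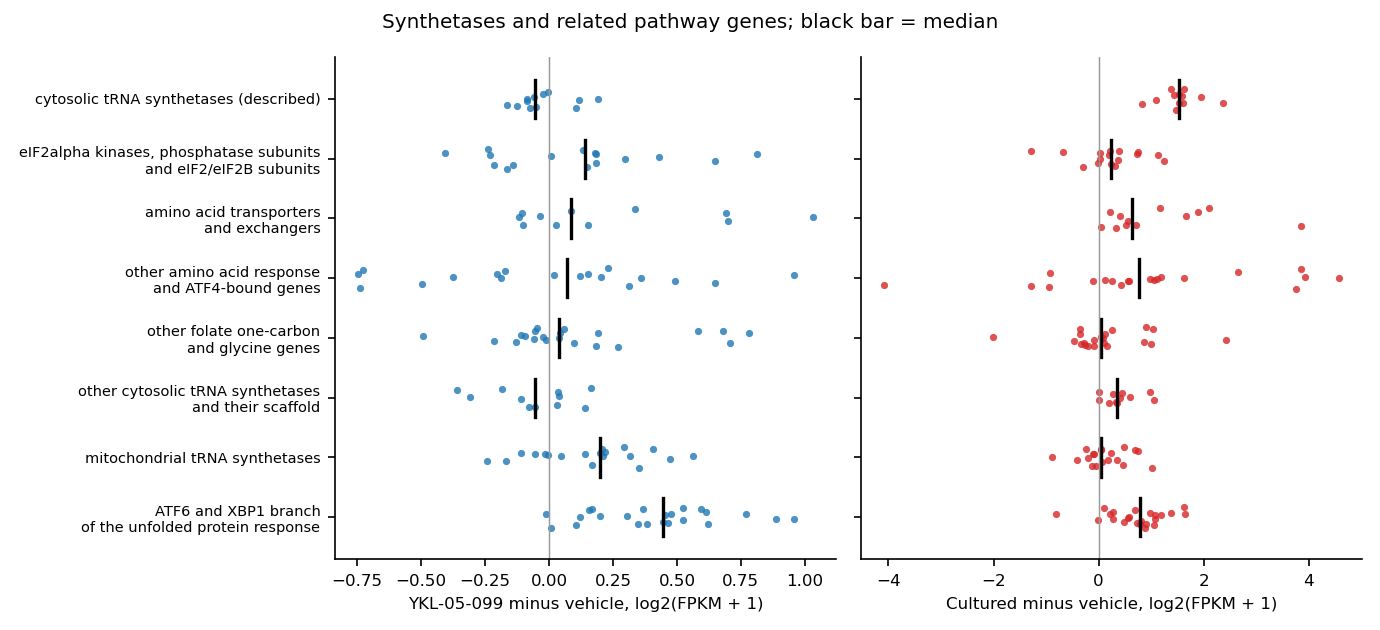
Differences on the log2(FPKM + 1) scale for the 12 described synthetases and the related pathway lists, 1 point per gene and a black bar at the median, for YKL-05-099 minus vehicle (left, blue) and cultured minus vehicle (right, red). In culture the 12 described synthetases lie between 0.83 and 2.37, while the other cytosolic and the mitochondrial synthetases have medians of 0.35 and 0.05.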

How the data were processed

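RNA from 9 libraries of BeCon cells (4 YKL-05-099, 1 cultured, 4 vehicle) was grouped by sample title. The authors deposited FPKM per gene and library, each with a quantification status, per the file headers. Demultiplexing with bcl2fastq 2.19 and the build GRCm38 are named in the submitters' processing notes, whereas the aligner and the FPKM program are unnamed there (not given in the sources used here). Of 48302 rows, 65 with a repeated gene identifier and 7 genes with a failed estimate were left out. Locus starts were moved by 1 base to count from 1. FPKM are not counts, so depth was only approximated, from the lowest values of 4254 single-transcript genes of at least 2000 bases, and gives no interval for a gene.

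For YKL-05-099 against vehicle, log2(FPKM + 1) values were fitted by limma (version 3.58.1, R 4.3.3; trend on, no rescaling, no block). Genes entered if at least 4 of the 8 mouse libraries reached 1 FPKM, with Benjamini-Hochberg adjustment over all 11788 genes. Fold changes on this scale understate changes of low genes. The fit was also run on simulated data in which genes varied independently and few were changed. That setting is unlike these data, where 43.2% of genes were called, so it does not check the calls reported here. Alternatives were TPM, median-of-ratios and quantile scaling, other pseudocounts and filters, all 9 libraries in the fit, a pan-leukocyte covariate, a replicate block and each mouse library left out. Tables and figures were made with Python 3.11.15. The 35 genes, the lists and the tests were chosen with earlier results of these data known. All 35 genes are accounted for; from each pathway list up to 4 genes with the smallest p are named, and promoters by the p of their gene. Some pathway genes that this rule names are not reported here. Of the genes described, 7 overlap another transcript of at least 1 FPKM on the opposite strand (Atf5, Cebpb, Ddit3, Mars, Psph, Shmt2, Yars), and Iars a small nucleolar RNA.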

Additional observations from a re-analysis of the deposited data

Results flagged for a closer look

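Within-group values were looked at in 70 groups of 4 libraries (35 genes in 2 groups), and in 4 of them 1 library stood apart from the other 3 by more than Dixon's 95% limit. Chance gives about 1 in 20 such groups. Aars was at 32.04 FPKM in YKL-05-099 replicate 1, above the other 3 treated libraries (28.4, 28.9 and 28.9 FPKM). Cars was at 12.61 FPKM in YKL-05-099 replicate 2, below the other treated libraries. Aldh1l2 was at 0.5569 FPKM and Sesn2 at 7.159 FPKM in vehicle replicate 1, both above the other 3 vehicle libraries. The calls of Cars and Sesn2 held when any 1 library was left out, and Aars was not called in any of those fits.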

How the results depend on the processing

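Of the 32 tested genes, Ddit3, Psat1, Pck2, Sesn2 and Atf4 kept their call under each setting run except the pan-leukocyte covariate, which left Psat1. The count of genes called higher, 8 as reported, was 7 to 9 with 1 library left out, 1 with the covariate and 5 with quantile normalization. The count called lower, 2 as reported, was 2 to 5 with 1 library left out (5 without vehicle replicate 4). It was 1 both at a mean FPKM of at least 5 (Vldlr was not tested) and without a filter (Trib3 at an adjusted p of 0.0532), 7 with median-of-ratios scaling, 6 with quantile normalization and 0 with the covariate. The number of genes apart in culture was 11 higher and 0 lower whichever mouse library was left out, and 29 higher at 1 log2 unit. The 1 cultured library could not be left out, so these counts do not check its values.

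Signs turned only for genes not called in either fit: Nars (0.0107 with TPM scaling, 0.0180 with the covariate and -0.0243 to 0.0184 with 1 library left out), Psph (-0.0345 with quantile normalization), Lars (-0.0448 to 0.00436) and Mars (-0.133 to 0.00406) with 1 library left out, and with the covariate Nupr1 (0.0276), Aars (-0.0145), Gdf15 (-0.102), Atf5 (-0.0912), Phgdh (0.0436) and Cebpb (-0.0226). Replicate numbers are shared by both groups. Deviations from the group means correlated at r = -0.0184, 0.133, -0.0467 and 0.172 between same-numbered libraries. The highest r of the 12 pairs with different numbers was 0.158. These values cannot decide whether same-numbered libraries share more than a number. With the replicate block 7 genes were called higher and 3 lower, with Chac1 lost (adjusted p = 0.0595 by limma) and Phgdh gained (-0.26, adjusted p = 0.015). Low values kept Cth, Aldh1l2 and Stc2 out of the reported fit; with no filter Cth was called higher (0.33, adjusted p = 0.0489 by limma), and Aldh1l2 (adjusted p = 0.948) and Stc2 (adjusted p = 0.681) were not called.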

Other observations

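The genes that set eIF2alpha phosphorylation and eIF2 supply split under treatment, with 5 of 16 tested called higher and 6 lower, where 28.0% of all genes were called higher and 15.1% lower. The count of 5 higher was 3 without YKL-05-099 replicate 3, vehicle replicate 1 or vehicle replicate 3. It was also 3 with median-of-ratios scaling, with quantile normalization and with no filter on low values. The count of 6 lower was 4 without YKL-05-099 replicate 1 or 3 or vehicle replicate 1 or 2. It was also 4 with TPM scaling and with the replicate block. In the fit with the leukocyte covariate Impact alone of the 16 was called. Impact, a regulator of the amino acid-sensing kinase GCN2, was at 24.9 ± 2.60 FPKM in YKL-05-099 and 13.7 ± 1.13 FPKM in vehicle cells (log2 fold change 0.81, limma adjusted p = 7.46e-05). Eif2ak2, the kinase that senses viral RNA, had 11.9 ± 0.885 FPKM in YKL-05-099 and 8.59 ± 0.218 FPKM in vehicle cells (0.43, limma adjusted p = 0.000394), whereas Eif2b3 (-0.41, limma adjusted p = 0.000988) and Eif2s1 (-0.23, limma adjusted p = 0.00244) fell. Ppp1r15a, the inducible phosphatase subunit that ends the response, named after its value was seen, was at 109 ± 20.4 FPKM in YKL-05-099, 27.3 FPKM in cultured and 69.0 ± 12.9 FPKM in vehicle cells. In culture 0 of the 16 were apart by 2 log2 units, with a median difference of 0.23.

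In the ATF6 and XBP1 branch of the unfolded protein response 13 of 23 tested genes were called higher after YKL-05-099 and 0 lower (median 0.45 on the log2 scale), where 28.0% of all genes were called higher and 15.1% lower. This count was 8 after median-of-ratios scaling, 11 with quantile normalization, 18 with the replicate block and 3 with no filter on low values. With 1 treated library left out it was 12, 8, 9 and 5 (YKL-05-099 replicates 1 to 4). With 1 vehicle library left out it was 5, 4, 6 and 18 (vehicle replicates 1 to 4). The pan-leukocyte covariate left 0 of these 23 past the limma threshold, and 0 with an unadjusted p under 0.05, at a median of -0.001. Edem1 was at 24.3 ± 4.57 FPKM in treated and 15.8 ± 2.99 FPKM in vehicle cells (0.59, limma adjusted p = 0.00861) and Syvn1 at 59.2 ± 16.7 FPKM in treated and 33.7 ± 7.07 FPKM in vehicle cells (0.77, limma adjusted p = 0.0119); Xbp1 (0.35, limma adjusted p = 0.00726) and Hsp90b1 (0.48, limma adjusted p = 0.00932) were also called. The other folate and glycine genes held 7 called higher and 4 lower of 21 tested, beside 28.0% and 15.1% of all genes. After median-of-ratios scaling 5 were called higher and 5 lower, beside 2502 and 2468 of all 11788 genes. Limma with the leukocyte covariate called 0 of the 21, and 6 had an unadjusted p under 0.05. The count of 4 lower was 2 without YKL-05-099 replicate 1, 2 or 3 or vehicle replicate 1 or 2, and with TPM scaling or the replicate block. Tyms, which makes thymidylate, was at 30.5 ± 3.34 FPKM in YKL-05-099 and 17.3 ± 1.66 FPKM in vehicle cells (0.78, limma adjusted p = 0.000113). Ahcy, of the methionine cycle, fell to 65.1 ± 3.25 FPKM in treated cells, against 92.0 ± 6.65 FPKM in vehicle cells (-0.49, limma adjusted p = 0.000219), and was apart as lower in culture, at 22.1 FPKM. Mthfd1l, a mitochondrial formyl-folate synthetase gene, was apart as higher, at 27.8 FPKM in culture and 4.40 ± 0.734 FPKM in vehicle cells, and is named after its value was seen.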
